A study of Rattus norvegicus with 4 samples.

Results

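Expression of the EGF receptor family and its ligands was described in rat epithelium facing an implant and epithelium facing a tooth. The set held 10 genes. These were the ligands Areg, Ereg, Hbegf, Tgfa, Btc and Egf, the receptors Egfr, Erbb2 and Erbb3, and Errfi1, an intracellular inhibitor of the receptors. A probe set was a member where the platform annotation gave it a single gene symbol and that symbol was one of these names. This gave 13 of the 31042 non-control probe sets on the array, with 3 for Egfr, 2 for Tgfa and 1 for each of the others. The genes were 10 of 14217 symbols with such a probe set. Of the 4 Affymetrix arrays, 2 held peri-implant epithelium, captured from the soft tissue around a titanium alloy implant, and 2 held junctional epithelium, captured from the gingiva at a tooth. Both groups came from male Sprague Dawley rats and both carried the label of tooth extraction and implant placement. The rats were 4 weeks old at surgery and 20 were killed 4 weeks after the implants were placed. The labels do not say whether an array holds RNA from 1 animal or several, so p-values measure only the spread between these samples, which may be technical.

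EGF family ligands are made as precursors anchored in the membrane. Metalloproteases of the ADAM family cut them free to bind the EGF receptor on the same or a neighbouring cell. The activated receptor pairs with itself or with ErbB2, which has no known ligand of its own, or ErbB3, which binds neuregulins and signals mainly through its partner. In skin and oral mucosa this pathway drives keratinocytes to divide and to migrate over wounds, and keratinocytes themselves make amphiregulin, heparin-binding EGF and TGF-alpha.

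Signals were log2 values, and 4 arrays limit the precision of all of them. The background level was set at 6.42, the maximum over 27 control probe sets for bacterial genes, and 55.6% and 56.8% of probe sets exceeded it on the peri-implant arrays, against 54.6% and 56.4% on the junctional arrays. For Gapdh, whose control probe sets gauge how intact the RNA was, the 3′ signal exceeded the 5′ signal by 0.52 and 0.53 on the peri-implant arrays and by 0.68 and 0.58 on the junctional arrays, and the part of this in the results was not tested. Of 12 keratinocyte probe sets, 11 lay above background on all 4 arrays, and the one that did not, for Cdh1, was at 0 on 2 of them. Of the 12, 2 were higher in peri-implant epithelium, Krt17 at 3.55-fold (limma adjusted p = 1.25e-06) and Krt4 at 1.33-fold (limma adjusted p = 0.00691), and 0 lower. Keratinocyte sums of linear signals were 377559 and 322873 in peri-implant epithelium, against 289958 and 299820 in junctional epithelium. The basal keratins were among the 11, with 16.23 and 15.87 for Krt5 in peri-implant epithelium and 15.84 and 15.87 in junctional epithelium. Of 8 listed proteins of junctional epithelium and the enamel organ, 2 were matched, Ambn and Amelx. Their 5 probe sets lay at or below background everywhere, with 1 array at 0 for each gene, so the label of the junctional samples could not be checked with them. Neutrophil and macrophage markers moved with the groups. Of 8 listed neutrophil genes 5 were matched, and all 5 probe sets were higher in peri-implant epithelium. Their summed linear signals were 103336 and 89952, against 38391 and 38665 in junctional epithelium. S100a8 and S100a9, by far the brightest, dominated these sums. The dimmer Cxcr2, Csf3r and Fcgr3a were 2.67-fold, 1.72-fold and 2.82-fold higher. Of 14 macrophage and dendritic cell probe sets, 6 were higher and 1 lower, with sums of 7147 and 7409 against 3975 and 3884. Neither list had a probe set at 0. Of 12 T and NK cell probe sets, 1 was higher and 0 lower, and 7 lay at or below background on all arrays. Of 7 mast cell probe sets, 0 passed, and 6 lay at or below background on all arrays. Fibroblast sums were 75245 and 74023 in peri-implant epithelium and 66024 and 65050 in junctional epithelium. Of 12 fibroblast probe sets, 2 were higher, for Col1a1 and Postn, 1 was lower, for Pdgfra, and 9 did not pass. Their median difference, peri-implant minus junctional, was 0.04 on the log2 scale, and that of Pdgfra was -1.04.

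One ligand was lower in peri-implant epithelium, and no receptor probe set passed the test. Of the 13 probe sets, 1 passed the test, for Tgfa, and it was lower in peri-implant epithelium. The test was limma with an intensity trend in its variance prior, adjusted by Benjamini-Hochberg over all 31042 probe sets, at a threshold of 0.05. It called 8.90% of all probe sets in either direction and 4.16% as lower, against 7.69% of the family's probe sets, so the family's share was near that of the array as a whole. With limma's default prior, 0 of 31042 probe sets passed (0%). At an unadjusted p under 0.05 that fit found 5247 probe sets (16.9% of all), 1 of them in the family (7.69% of the 13). Arrays of the groups did not overlap for 7 of 13 probe sets (53.8%), against 53.3% of all probe sets. Of these 7, 3 were higher and 4 lower in peri-implant epithelium. The median difference, peri-implant minus junctional on the log2 scale, was -0.10 over the 13 and 0.02 over all probe sets. In bulk samples such as these, fewer cells of a type and less RNA per cell cannot be told apart.

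Signal set the precision with which a family probe set could be compared. Above background on all 4 arrays were 9 of the 13, covering Areg, Hbegf, Tgfa, Egfr, Erbb2, Erbb3 and Errfi1. The differences of these 9 ran from -0.75 to 0.52, with a median size of 0.37, against 0.27 for the 15185 probe sets above background on all 4 arrays. In that brighter set the test called 14.7%, and the groups did not overlap for 62.7%. The family's counts there were 1 and 7 of 9. Another 2 probe sets, for Btc and Egf, lay at or below background everywhere, and 2, for Ereg and the third Egfr probe set, on some arrays. Over all probe sets, the median SD within groups was 1.06 for a mean signal up to background and 0.107 for a mean above 9.

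**Figure D1:**
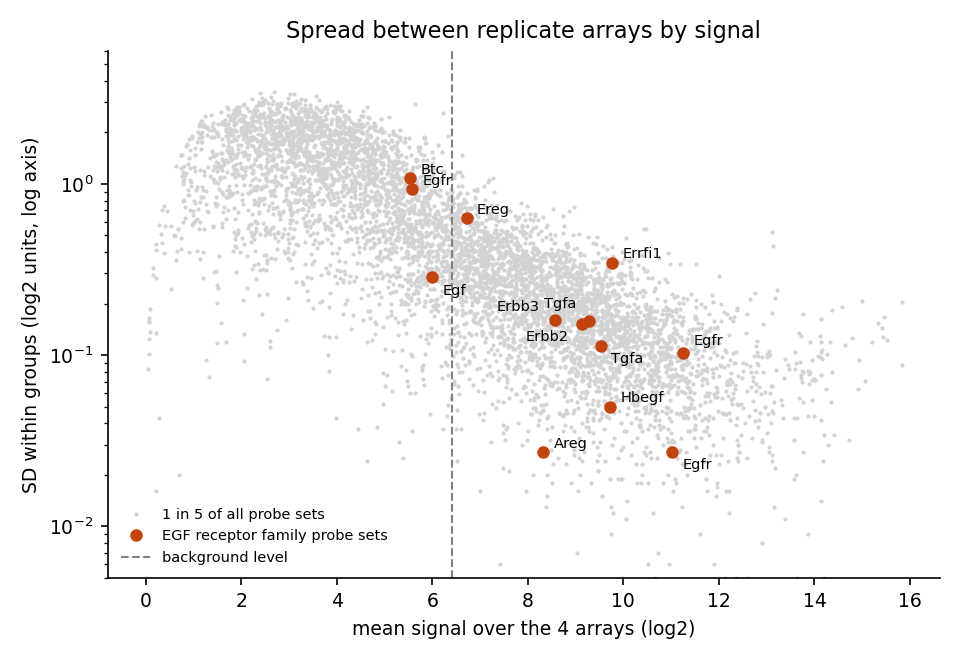
SD within groups (log2 units, on a log axis) against the mean signal over the 4 arrays (log2). Grey points are 1 in 5 of all probe sets, orange points the 13 probe sets of the EGF receptor family, and the dashed line is the background level of 6.42; SDs under 0.005 fall at the lower edge or off it. The spread is widest at low signals, where Btc, Egf, Ereg and 1 Egfr probe set lie.

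Tgfa encodes TGF-alpha, a ligand of the EGF receptor that keratinocytes secrete and respond to. The gene is protein-coding and lies on chromosome 4 from 120175549 to 120258342 in the rat assembly GRCr8. Its probe set 1387450_at had 9.26 and 9.04 in peri-implant epithelium, against 9.87 and 9.93 in junctional epithelium. Both peri-implant arrays were below both junctional arrays. The means were 9.15 ± 0.16 and 9.90 ± 0.04 (log2 signal, SD, n = 2 each), and Tgfa fell by 0.75 on the log2 scale (SE 0.15, 95% interval -1.09 to -0.41, limma adjusted p = 0.0156). On the linear scale the signal was 1.69-fold lower, with an interval of 1.33-fold to 2.13-fold. Of the 15185 probe sets above background on all 4 arrays, 5.41% were at least as far down. Without 1 array in turn the difference was -0.64 to -0.86 and limma's adjusted p 0.0757 to 0.175, in fits where the lone array was assumed to vary like the other group and where 73 to 353 of all probe sets passed. With the default prior the adjusted p was 0.232. The second Tgfa probe set, 1381449_s_at, whose suffix marks probes shared by related transcripts, had 8.97 and 9.24 in peri-implant epithelium and 9.55 and 9.39 in junctional epithelium. Its groups did not overlap either, and its difference was -0.37 (95% interval -0.74 to 0.01, limma adjusted p = 0.215), which did not pass. The part of the leukocyte and keratinocyte markers in the Tgfa result was not tested.

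**Figure D2:**
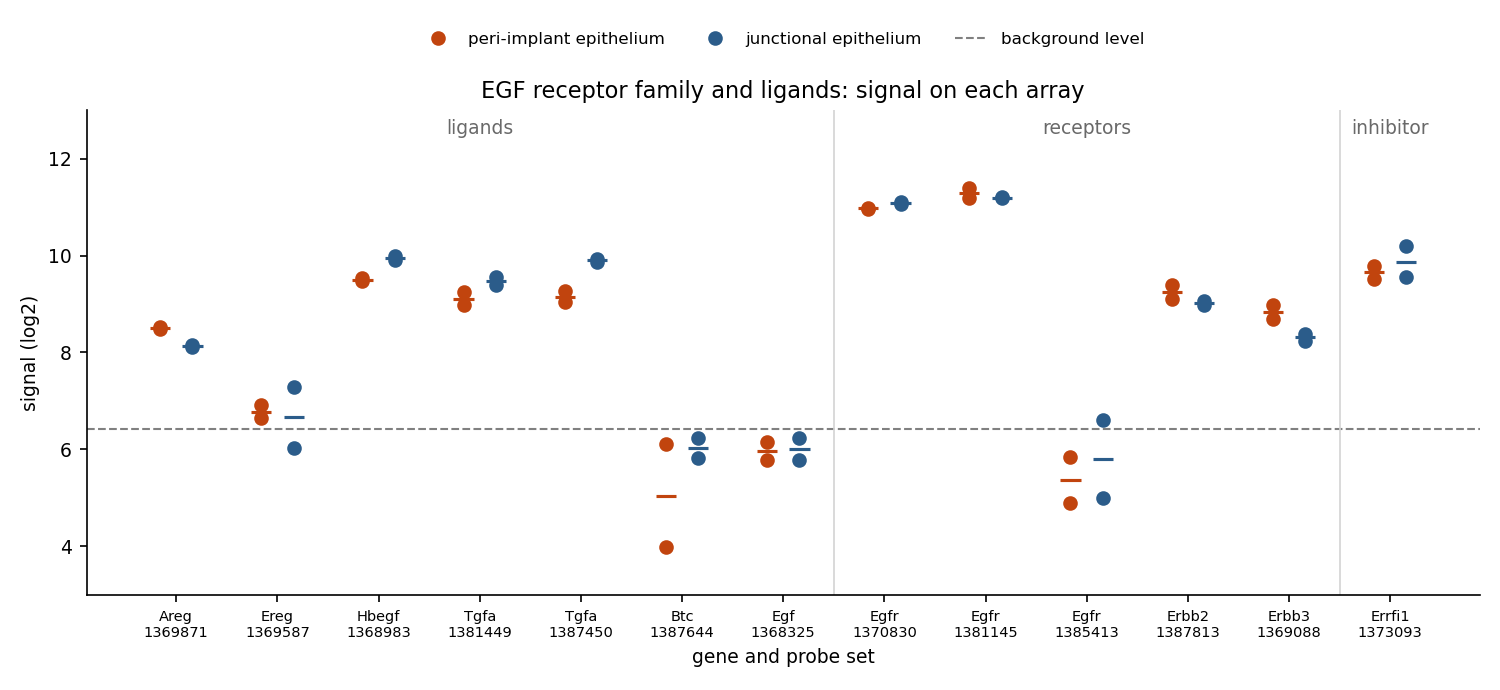
Log2 signal of each of the 13 probe sets on each array, with peri-implant arrays in orange on the left and junctional arrays in blue on the right of each pair, short bars for group means and a dashed line at the background level of 6.42. Signals of different probe sets are not comparable with each other. The 2 peri-implant arrays lie below the junctional arrays for Hbegf, both Tgfa probe sets and Egfr 1370830_at and above them for Areg, Erbb2 and Erbb3.

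Upstream sequence is shown for Tgfa, the ligand with the probe set that passed, and for Areg, the ligand whose arrays lay apart in the other direction without passing. Both come from RefSeq on GRCr8 and are read 5′ to 3′ on the gene's strand. Only bases before the first base of the gene record were kept. This left 80 bases for Tgfa, chr4:120175469-120175548 on the plus strand, and 250 bases for Areg, chr14:17265642-17265891 on the minus strand. Capitals mark matches, on either strand, to the AP-1 motif TGANTCA, the cyclic AMP response element TGACGTCA, the GC box GGGCGG and the TATA box TATAAA. None of the matches overlapped another.
Tgfa: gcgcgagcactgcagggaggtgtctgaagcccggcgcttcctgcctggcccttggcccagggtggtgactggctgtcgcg
Areg: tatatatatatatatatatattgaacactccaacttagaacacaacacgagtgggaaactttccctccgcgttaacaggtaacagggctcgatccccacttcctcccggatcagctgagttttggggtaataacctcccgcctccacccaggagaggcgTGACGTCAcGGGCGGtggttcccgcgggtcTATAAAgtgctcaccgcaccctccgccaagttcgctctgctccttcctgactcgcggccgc
The Areg stretch was 54.4% G and C and held a cyclic AMP response element beginning 91 bases before the start, a GC box at 82 and a TATA box at 61. It did not hold the AP-1 motif. Among the 250-base stretches of 33469 genes, 30.5% held a GC box, 12.9% a TATA box, 6.34% the AP-1 motif and 1.59% the cyclic AMP response element. The Tgfa stretch was 71.2% G and C and held none of the 4 motifs. Among the first 80 bases of the same stretches, 8.27% held a GC box, 4.36% a TATA box, 2.17% the AP-1 motif and 0.191% the cyclic AMP response element. A match describes letters in these windows and is not a measured binding site, and these windows leave out the sequence around other start sites.

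Hbegf encodes heparin-binding EGF, a ligand that keratinocytes induce at wound edges. It lies on chromosome 18 from 28380337 to 28390220. Hbegf had 9.48 and 9.53 in peri-implant epithelium, against 9.90 and 9.99 in junctional epithelium. The groups did not overlap, and the gap between them was wider than the distance between replicates. The difference was -0.45 (SE 0.14, 95% interval -0.75 to -0.14, unadjusted p = 0.00867, limma adjusted p = 0.0737) and did not pass over all probe sets. Among the 18393 probe sets with a group mean above background it did pass (limma adjusted p = 0.0405), in a fit that called 21.6% of those probe sets.

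Areg encodes amphiregulin, a ligand with a heparin-binding stretch that drives keratinocyte growth. Areg had 8.53 and 8.49 in peri-implant epithelium, against 8.12 and 8.15 in junctional epithelium. Both peri-implant arrays were above both junctional arrays. The difference was 0.37 (SE 0.21, 95% interval -0.09 to 0.84, limma adjusted p = 0.31) and did not pass. The SDs were 0.03 and 0.02, and the SE is larger because limma weighs in the spread of other probe sets of like signal. On the linear scale the interval ran from 0.937-fold to 1.79-fold, peri-implant over junctional.

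Ereg, Btc and Egf gave no measurable difference at their signals. Ereg encodes epiregulin and lies beside Areg on chromosome 14, at 17311485 to 17325260 against 17256384 to 17265641 for Areg. Btc, at 16992668 to 17031178, belongs to the same cluster of ligand genes. Ereg had 6.91 and 6.65 in peri-implant epithelium, against 6.04 and 7.28 in junctional epithelium. The junctional arrays lay on either side of both peri-implant arrays, and the difference of 0.11 had an interval of -0.95 to 1.17. It was -0.08 with signals below background raised to that level, and -0.51 without the first junctional array.

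Btc, which encodes betacellulin, had 3.98 and 6.11 in peri-implant epithelium and 5.83 and 6.24 in junctional epithelium. All 4 values were at or below background, and the difference of -0.99 came from the first peri-implant array, without which it was 0.08. Egf encodes the founding ligand, abundant in the submandibular gland of rodents and shed into saliva. It had 5.78 and 6.16 in peri-implant epithelium and 5.79 and 6.23 in junctional epithelium. These values were also below background on every array, so no level and no fold change of Btc or Egf can be given.

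The receptors showed no difference that passed. Egfr encodes the receptor that all 6 ligands bind, and lies on chromosome 14 from 95378626 to 95551358. Its probe set 1370830_at had 10.99 and 10.96 in peri-implant epithelium, against 11.06 and 11.10 in junctional epithelium. Its probe set 1381145_at had 11.19 and 11.40 in peri-implant epithelium, against 11.19 and 11.20 in junctional epithelium. The first was lower on both peri-implant arrays without overlap, and the groups of the second overlapped. Their differences were -0.10 (95% interval -0.32 to 0.12) and 0.10 (95% interval -0.13 to 0.33), of opposite sign, with limma adjusted p = 0.581 and 0.596. On the linear scale the intervals of peri-implant over junctional ran from 0.802-fold to 1.08-fold and from 0.915-fold to 1.26-fold. The third, 1385413_at, was above background on 1 array, with 4.90 and 5.84 in peri-implant epithelium and 5.0 and 6.61 in junctional epithelium.

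Erbb2 encodes the receptor without a known ligand, which acts as the partner of the others. It lies on chromosome 10 from 83907491 to 83931365. Erbb2 had 9.39 and 9.10 in peri-implant epithelium, against 8.97 and 9.06 in junctional epithelium. Its groups did not overlap, but the lower peri-implant array lay close to the higher junctional one. The difference was 0.23 (95% interval -0.16 to 0.62, limma adjusted p = 0.466).

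Erbb3 encodes the neuregulin receptor with a weak kinase, and lies on chromosome 7 from 1579079 to 1600379. Erbb3 had 8.97 and 8.69 in peri-implant epithelium, against 8.23 and 8.39 in junctional epithelium. Both peri-implant arrays were above both junctional arrays. The difference was 0.52 (SE 0.21, 95% interval 0.06 to 0.98), or 1.43-fold, the highest positive difference among the family's probe sets. Its unadjusted p was 0.0311 and its limma adjusted p = 0.154, so it did not pass.

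Errfi1 encodes a protein that binds the kinase domain of the EGF receptor and silences it, and that receptor signalling itself induces. It lies on chromosome 5 from 166606841 to 166620124. Errfi1 had 9.51 and 9.79 in peri-implant epithelium, against 10.19 and 9.55 in junctional epithelium. The second junctional array lay among the peri-implant values, and the difference was -0.21 (95% interval -0.67 to 0.25, limma adjusted p = 0.581). Without the first junctional array it was 0.10.

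**Figure D3:**
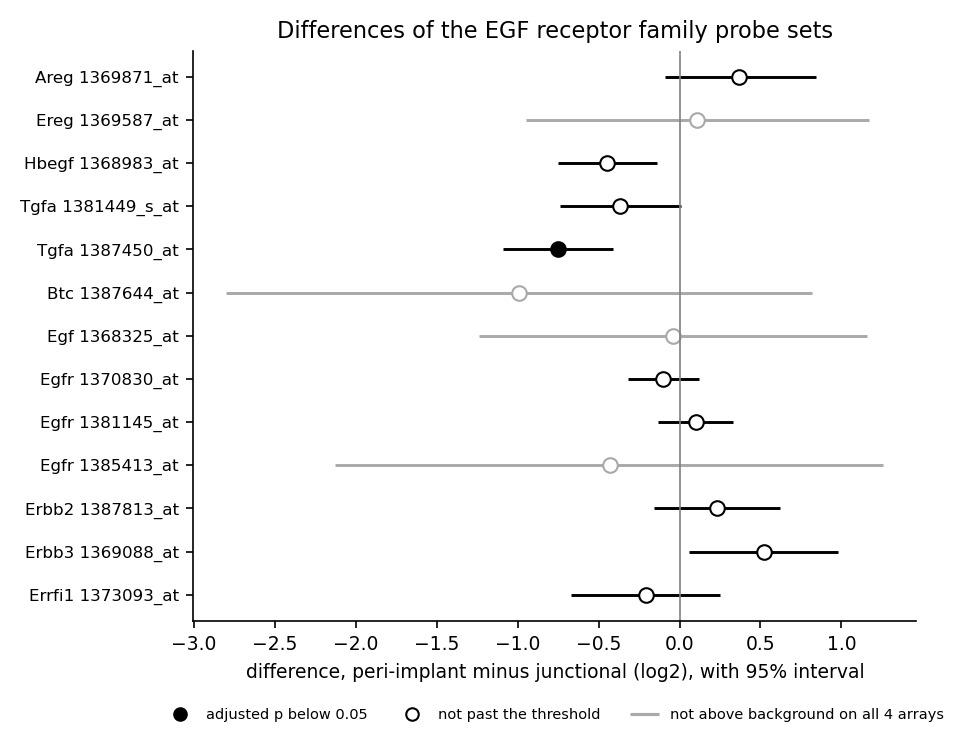
Difference of each of the 13 probe sets, peri-implant minus junctional (log2), with its 95% interval from limma with an intensity trend. The filled point is Tgfa 1387450_at, the probe set that passed (adjusted p = 0.0156), and grey marks probe sets not above background on all 4 arrays, whose intervals are the widest. The intervals of the 2 bright Egfr probe sets lie closest around 0.

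Among other genes of the pathway, 3 of 11 probe sets for sheddases and ligand release rose in peri-implant epithelium (27.3%), and 0 fell. For genes that receptor signalling induces, 5 of 23 probe sets rose (21.7%), and 0 fell. In the other roles 0%, 10.0% and 13.3% were called, counting both directions. Over all probe sets, 4.74% were called higher and 4.16% lower. The list held 85 genes in 5 roles, of which 65 were matched to 117 probe sets. In all, 14 of these rose, 2 fell and 101 did not pass (13.7% called, against 8.90% of all probe sets), and the median difference was 0.05, against 0.02 over all probe sets. Of the 117, 90 lay above background on all 4 arrays, and 15 of these passed (16.7%, against 14.7% of all such probe sets). With dim probe sets left out, 24.0% of 100 passed, against 21.6% of 18393. With the default prior 0 of the 117 passed, and 21 of the 117 had an unadjusted p under 0.05, against 16.9% of all probe sets. Neutrophil, macrophage, keratinocyte and fibroblast sums were higher in peri-implant epithelium, as given above, although the median difference of the fibroblast probe sets was 0.04. The part of these markers in the pathway differences was not tested.

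Of the 11 probe sets for sheddases and ligand release, 3 rose, 0 fell and 8 did not pass, with a median difference of 0.46. The share called was 27.3%, against 8.90% of all probe sets and 14.7% of those above background on all 4 arrays. Of the 11, 8 lay above background on all 4. This role mixes proteases with Timp3, a metalloprotease inhibitor. Timp3 probe sets differed by -2.16, -1.78, 0.82 and 0.20 and did not pass. Only the one at 0.20 lay above background on all 4 arrays. Adam17, the protease that frees TGF-alpha, amphiregulin and heparin-binding EGF, had 10.70 and 10.90 in peri-implant epithelium, against 10.29 and 10.25 in junctional epithelium. The groups did not overlap, and Adam17 rose by 0.54 (95% interval 0.27 to 0.80, limma adjusted p = 0.0224). Adam9 and Adam15, related membrane proteases, rose by 0.98 and 1.00. Without 1 array in turn, Adam9 and Adam17 did not pass in any of 4 fits, with limma adjusted p of 0.0826 to 0.191 for Adam17, and Adam15 passed in 1. Adam10, which frees EGF and betacellulin in mouse cells, had differences of 0.02 and -0.34 on its 2 probe sets. Rhbdf1, an inactive rhomboid protein that helps Adam17 mature, differed by 0.52 (limma adjusted p = 0.0823).

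The other ligands and the fourth receptor had 13 probe sets, of which 0 passed and 7 lay at or below background everywhere, with a median difference of 0.22. In the fit with an intensity trend, 4 of the 13 had an unadjusted p under 0.05 (against 24.8% of all probe sets), and 2 of these 4 lay at or below background on all arrays. Nrg1, a neuregulin that ErbB3 binds, had 8 of the 13. Of the 8 Nrg1 probe sets, 3 lay above background on all 4 arrays, with differences of 0.86, 0.75 and 0.02. Its brightest, 1369783_a_at, had 8.13 and 8.45 in peri-implant epithelium, against 7.30 and 7.55 in junctional epithelium, without overlap (limma adjusted p = 0.0726). Erbb4 was below background on all 4 arrays.

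Of the 40 probe sets for adaptors and kinases, 3 rose, 1 fell and 36 did not pass, with a median of 0.01. The share called was 10.0%, against 8.90% of all probe sets and 14.7% of those above background on all 4 arrays. Of the 40, 35 lay above background on all 4. Ptpn11, a phosphatase that relays receptor signals to Ras, rose by 0.55 on 1 of 2 probe sets, and Stat3, a transcription factor downstream of the receptor and of cytokines, rose by 0.52 on 1 of 2. Pik3ca, a catalytic subunit of phosphoinositide 3-kinase, rose by 1.27 on 1 of 6 probe sets, and 3 of the 6 had a positive difference. Sos2, an exchange factor for Ras, fell by 0.65. None of these 4 passed in any fit without 1 array, with limma adjusted p between 0.0549 and 0.28.

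Of the 30 probe sets for receptor and pathway inhibitors, 3 rose, 1 fell and 26 did not pass, with a median of -0.04. The share called was 13.3%, against 8.90% of all probe sets and 14.7% of those above background on all 4 arrays. Of the 30, 28 lay above background on all 4. Socs3, a suppressor of cytokine signalling, had 9.55 and 9.39 in peri-implant epithelium, against 8.06 and 8.33 in junctional epithelium, and rose by 1.28 (limma adjusted p = 0.00394). Cblc, an epithelial ubiquitin ligase of the family that sends the receptor to degradation, rose by 1.02. Its relative Cbl fell by 1.02 on 1 of 4 probe sets, and the others differed by -0.19 to 0.13. Socs5, which promotes breakdown of the EGF receptor, rose by 1.91 on 1 of 2 probe sets, and the other differed by -0.23. Without 1 array in turn Socs3, Cblc and Cbl did not pass in any of 4 fits, and Socs5 passed in 1. The MAP kinase phosphatase Dusp6, induced by the same cascade, did not pass on any of 3 probe sets, with differences of -0.18, -0.24 and 0.50.

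Of the 23 probe sets for genes that receptor signalling induces, 5 rose, 0 fell and 18 did not pass, with a median of 0.17. The share called was 21.7%, against 8.90% of all probe sets and 14.7% of those above background on all 4 arrays. Of the 23, 15 lay above background on all 4. Many other signals induce these genes too. Fos, an immediate early transcription factor, had 12.35 and 12.40 in peri-implant epithelium, against 9.91 and 9.89 in junctional epithelium. The groups lay far apart, and Fos was 5.55-fold higher (limma adjusted p = 9.29e-07), also in all 4 fits without 1 array. Its other probe set was below background everywhere. Egr1, another immediate early factor, had 12.06 and 12.01 in peri-implant epithelium, against 10.99 and 11.03 in junctional epithelium, a rise of 1.03 that passed in 2 of 4 fits without 1 array. Vegfa, an angiogenic growth factor, rose on both of its probe sets, by 0.88 and 0.42. Egr2, at or below background in junctional epithelium, was 2.12-fold higher with the junctional signals raised to background, an estimate without an interval. Neither the first Vegfa probe set nor Egr2 passed in a fit without 1 array, with limma adjusted p of 0.0593 to 0.195. Fosl1, Myc and the brighter Plaur probe set, also induced by the receptor, differed by 0.17, 0.02 and 0.01 and did not pass.

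**Figure D4:**
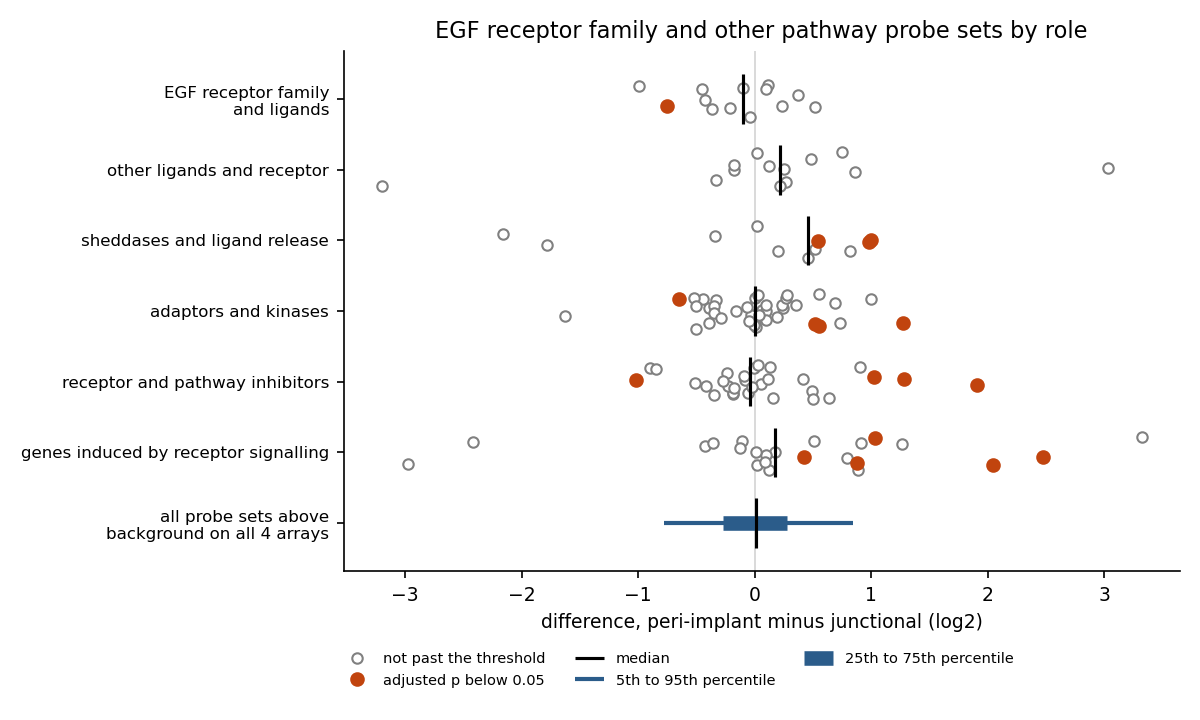
Differences, peri-implant minus junctional (log2), of the EGF receptor family probe sets (top row) and of the other pathway probe sets by role, with filled points for adjusted p below 0.05 and a black bar at each median. The bottom row gives the 5th to 95th and 25th to 75th percentiles of the 15185 probe sets above background on all 4 arrays, which run from -0.78 to 0.84 and from -0.27 to 0.28. Of the family only Tgfa 1387450_at is filled, at -0.75, and the filled point farthest to the right is Fos, at 2.47.

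The patterns closest to that of Tgfa 1387450_at were sought among 20826 probe sets with a single symbol, as the root mean square distance of the 4 centred log2 values. The nearest genes were Pkp2, a desmosomal plaque protein, Dicer1, which processes small RNAs, and Met, the receptor of hepatocyte growth factor. Their distances were 0.0217, 0.0222 and 0.023. Met had 8.63 and 8.44 in peri-implant epithelium, against 9.24 and 9.35 in junctional epithelium. With 4 arrays in 2 groups, such a likeness mainly restates a similar difference between the groups.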

How the data were processed

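Signals came from 4 Affymetrix arrays, 2 per epithelium. The deposited values are log2 signals per probe set. Neither the labels nor the file name the software or the normalization. The data had equal trimmed means on the linear scale, 500.2 on each array with 2% trimmed at each end, and 378 to 729 values per array at log2 0, so low signals are noisy. RNA was amplified and biotin-labelled, per the labels' protocols. After removing 57 control probe sets, 31042 were tested, peri-implant minus junctional, in R 4.3.3 with limma 3.58.1 (lmFit, then eBayes with trend and robust both switched on, two-sided, Benjamini-Hochberg over all probe sets, threshold 0.05). The prior was chosen knowing that the default one passed 0 probe sets. It was the main test because the spread depends on signal. A permutation test of 2 against 2 arrays cannot go below p = 0.333. The family members, pathway and marker lists were chosen with earlier results of these data known. Named were all family probe sets and, per role, up to 4 passing pathway genes with the largest difference. Further pathway genes were named for their role after their values were seen. Folds against a group at or below background used signals raised to it. Symbols were updated by gene identifier from RefSeq, GRCr8. The fitting code was tested on simulated data.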

Additional observations from a re-analysis of the deposited data

How the results depend on the processing

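The number of family probe sets past the threshold stayed at 1 with a prior that was not robust, quantile normalization, median centring, signals raised to background, the replicate block and 1 probe set per gene. It was 0 with the default prior, 2 of 10 with dim probe sets left out (20.0%, against 3968 of 18393 probe sets in that fit, 21.6%), where Hbegf joined Tgfa, and 0 without any 1 array. Over all probe sets, the count of 2762 became 0 with the default prior, 4202 with the replicate block, 1810 with 1 probe set per gene (14217 tested), and 73 to 353 without 1 array. For the other pathway genes, the count of 16 became 0 with the default prior, 26 with the replicate block, 25 with signals raised to background, and 1 to 4 without 1 array. Same-numbered arrays of the groups shared little: their deviations from the group means correlated at 0.0394 over all probe sets and 0.0607 over those above background, so the numbers were not treated as pairs. Family differences changed sign in 1 case among the settings that keep all arrays (Ereg) and in 9 cases when 1 array was left out, none of them a probe set that passed. With 2 arrays per group and dim signals for Btc, Egf and Ereg, differences smaller than their intervals could not be seen.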
